A study of Mus musculus with 17 samples.

Results

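The Fc gamma receptors of the mouse, the signalling chain they share and the neonatal Fc receptor were examined in RNA of isolated cortical microvessels. The members were the 6 genes of this family that the count table holds under the symbols Fcgr1, Fcgr2b, Fcgr3, Fcgr4, Fcer1g and Fcgrt, of 42687 genes in all. They were listed as a receptor family by name, with earlier results of these libraries known. A filter on low counts left 18753 genes for testing, 5 of the 6 members among them; Fcgr4 did not pass it and is described by its counts.

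The libraries came from microvessels of the brain cortex of mice aged 10 to 11 months, either wild type (WT) or APP/PS1, which the sample labels write as APP. APP/PS1 mice carry human amyloid precursor protein and presenilin transgenes and form amyloid deposits; the labels give neither the line nor the promoter of the transgenes. All mice had been injected intraperitoneally with 10 mg/kg of a peptide once every 2 days over 2 weeks, so no group was without injections. Of the peptides, gp91-ds-tat, inhibits the superoxide-producing oxidase NOX2 (label NOX2), and the other, sgp91-ds-tat, served as control (label SC). There were 5 libraries of WT with control peptide, 5 of WT with inhibitor, 2 of APP/PS1 with control peptide and 5 of APP/PS1 with inhibitor. The extraction protocol speaks of ipsilateral cortices collected after a surgery that no other label describes. The labels name the material as endothelium, pericytes and astrocytic endfeet. They do not say whether each library came from a separate animal, and p-values here measure the spread between these libraries, which may be technical in part.

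Fc gamma receptors bind the constant region of IgG and couple antibody-coated particles to phagocytosis and inflammatory signalling in myeloid cells. Fcgr1, Fcgr3 and Fcgr4 encode activating receptors that signal through the common gamma chain, Fcer1g, whose ITAM recruits the kinase Syk. Fcgr2b encodes the only inhibitory Fc gamma receptor of the mouse, which signals through an ITIM and the phosphatase SHIP1, encoded by Inpp5d. In the brain, the signalling receptors are known mainly from microglia and macrophages. Fcgrt encodes the heavy chain of the neonatal Fc receptor, which pairs with beta-2-microglobulin, recycles IgG and albumin inside cells and is known from brain endothelium.

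In assembly GRCm38 with the GENCODE vM21 annotation, 4 members lie within 276 kb of chromosome 1. Fcgr2b (ENSMUSG00000026656) is at chr1:170958617-170976547 on the minus strand. Fcgr4 (ENSMUSG00000059089) is at chr1:171018920-171029761 on the plus strand. Fcgr3 (ENSMUSG00000059498) is at chr1:171051174-171064935, and Fcer1g (ENSMUSG00000058715) is at chr1:171229572-171234365, both on the minus strand. That span holds 11 protein-coding genes. Fcgr1 (ENSMUSG00000015947) is at chr3:96282909-96293969 and Fcgrt (ENSMUSG00000003420) at chr7:45092990-45103851, both on the minus strand. An annotated antisense gene, Gm38204, shares 155 exonic bases with Fcgr2b and had 0 counts in all 17 libraries. Strand handling in the authors' counting is not given in the sources used here.

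Promoter windows of 250 bases before the annotated start were read from RefSeq (GRCm38.p6) for all 6 members. They were searched for the motif GAGGAA and its reverse complement TTCCTC, which the myeloid factor PU.1 can bind. This motif is narrower than GGAA, the core of ETS factors at large, which was not searched for. The motif GAGGAA was in the windows of Fcgr1, Fcgr3 and Fcgr4 and not in those of Fcgr2b, Fcer1g or Fcgrt. It was in 25.9% of the 27025 genes with a window, so 3 of 6 members is a description of these windows and not of binding. Parts of the windows of the 3 activating receptors and of Fcgr2b are shown, 5′ to 3′ on the strand of the gene and outside annotated exons, because these receptors share a ligand but send opposite signals. Capitals mark the motif, with positions counted back from -1, the base before the start. It began at position -55 in Fcgr1 (chr3:96293970-96294069), -6 in Fcgr3 (chr1:171059404-171059503) and -22 in Fcgr4 (chr1:171018820-171018919). RefSeq has a further start of Fcgr3, from which the same motif is at position -15, and both starts lie inside the GENCODE span of the gene. The stretch of Fcgr2b (chr1:170976128-170976190) does not hold the motif, though it does hold the shorter GGAA. It is short because 187 bases of that window are annotated exon.
Fcgr1: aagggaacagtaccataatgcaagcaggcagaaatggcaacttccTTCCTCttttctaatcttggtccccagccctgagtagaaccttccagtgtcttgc
Fcgr3: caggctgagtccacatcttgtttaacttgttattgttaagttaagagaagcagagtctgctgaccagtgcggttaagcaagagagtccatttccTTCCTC
Fcgr4: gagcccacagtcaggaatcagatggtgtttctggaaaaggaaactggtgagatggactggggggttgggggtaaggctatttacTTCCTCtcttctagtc
Fcgr2b: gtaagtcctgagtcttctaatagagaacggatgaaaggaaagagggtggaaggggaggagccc

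The libraries held 7316503 to 17862965 counts, with a median of 11342154, and levels are given as CPM, counts scaled to the library size after TMM. A level of 3 counts, taken as the floor, is 0.174 to 0.39 CPM over the libraries, and this floor and the intervals on counts cover counting error only. App was higher in APP/PS1 libraries (2600 CPM ± 521, SD, n = 7) than in WT libraries (1600 CPM ± 279, SD, n = 10) (edgeR quasi-likelihood adjusted p = 0.00631), the direction that the labels give. Cybb, the gene of the NOX2 subunit that the inhibitor is built on, was at 6.44 CPM ± 2.04 (SD, n = 7) and 5.33 CPM ± 1.74 (SD, n = 10), with an edgeR adjusted p of 0.909. Markers of the labelled material were present in every library: the summed CPM of 8 endothelial genes was 2290 to 3700 in WT and 1990 to 3620 in APP/PS1. RNA of cells that the labels do not name was present too. The sum of 6 neuron genes was 2490 to 4190 CPM in WT and 2570 to 3970 CPM in APP/PS1. For 5 oligodendrocyte genes it was 1250 to 1840 and 1310 to 2290 CPM. For 5 choroid plexus genes it varied widely, at 29.4 to 8100 and 196 to 4720 CPM.

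The inhibitory receptor gene Fcgr2b was the member whose level was higher in APP/PS1 past the test. With control peptide, Fcgr2b was at 8.04, 6.18, 7.82, 9.47 and 6.49 CPM in WT libraries and at 11.8 and 12.8 CPM in APP/PS1 libraries. With inhibitor it was at 6.73, 7.85, 6.55, 5.72 and 5.05 CPM in WT and at 11.4, 13.3, 9.01, 10.2 and 15.4 CPM in APP/PS1. All but 1 WT library lay below every APP/PS1 library: the exception was WT with control peptide replicate 4, at 9.47 CPM, against 9.01 CPM in APP/PS1 with inhibitor replicate 3. Over both peptides, the log2 change of Fcgr2b was 0.81 ± 0.12 (SE), a 1.76-fold higher level (95% interval of the log2 change 0.55 to 1.07; edgeR quasi-likelihood F test, Benjamini-Hochberg adjusted p = 0.00135). Leaving out any 1 library kept Fcgr2b past the threshold, with log2 changes of 0.74 to 0.86.

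Among the activating receptors, Fcgr3, a low-affinity receptor for IgG complexes, had the highest counts. With control peptide, Fcgr3 was at 12.8, 5.34, 4.88, 7.95 and 8.89 CPM in WT and at 13.04 and 12.39 CPM in APP/PS1. With inhibitor it was at 6.17, 7.97, 11.1, 7.41 and 5.28 CPM in WT and at 10.6, 16.1, 11.6, 10.6 and 15.9 CPM in APP/PS1. A pair of WT libraries, control peptide replicate 1 and inhibitor replicate 3, reached the APP/PS1 range, and the other 8 lay below it. The log2 change of Fcgr3 over both peptides was 0.73 ± 0.18 (SE) with an adjusted p of 0.0954 in edgeR, above the threshold of 0.05. The call rested on those 2 libraries: without WT control peptide replicate 1 the adjusted p was 0.0125, and without WT inhibitor replicate 3 it was 0.0452. The same 2 libraries had the highest summed perivascular macrophage markers in WT, 88.3 and 117 CPM, and the part of these in the Fcgr3 level was not tested.

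Fcgr1 encodes the high-affinity receptor, which can bind single IgG molecules. With control peptide, Fcgr1 was at 2.72, 2.3, 3.05, 2.05 and 2.09 CPM in WT and at 3.7 and 4.24 CPM in APP/PS1. With inhibitor it was at 2.34, 3.11, 1.97, 3.51 and 1.55 CPM in WT and at 2.72, 5.39, 2.93, 3.72 and 5.41 CPM in APP/PS1. With control peptide, the 2 APP/PS1 libraries lay above the 5 WT libraries, as for 3.6% of tested genes. With inhibitor, at 5 libraries per genotype, the ranges overlapped. The log2 change by genotype was 0.69 with control peptide and 0.71 with inhibitor. The log2 change over both peptides was 0.70 ± 0.19 (SE), with an edgeR adjusted p of 0.133.

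Fcgr4, an activating receptor for IgG2 subclasses, was close to the detection floor in every group. Its counts with control peptide were 7, 0, 0, 6 and 2 in WT and 3 and 5 in APP/PS1. With inhibitor they were 0, 4, 4, 0 and 6 in WT and 5, 8, 0, 0 and 3 in APP/PS1. The pooled level was 0.252 CPM in WT (29 counts; 95% exact Poisson interval 0.169 to 0.361) and 0.266 CPM in APP/PS1 (24 counts; 0.17 to 0.395). A difference between genotypes was not detectable at this depth.

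Fcer1g, the common gamma chain on which surface expression of the activating receptors depends, had a log2 change close to those of the receptors. With control peptide, Fcer1g was at 8.62, 5.34, 5.99, 8.13 and 3.87 CPM in WT and at 12.01 and 11.23 CPM in APP/PS1. With inhibitor it was at 7.29, 8.43, 6.01, 4.94 and 4.51 CPM in WT and at 9.6, 13.9, 8.14, 6.62 and 11.4 CPM in APP/PS1. The lowest APP/PS1 library, inhibitor replicate 4 at 6.62 CPM, lay below 4 of the 10 WT libraries. The log2 change of Fcer1g was 0.73 ± 0.17 (SE) with an edgeR adjusted p of 0.0633. It passed the threshold without APP/PS1 inhibitor replicate 4 (adjusted p = 0.0281), without WT inhibitor replicate 2 (0.0314) and without WT control peptide replicate 1 (0.041).

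The neonatal receptor gene Fcgrt did not differ by genotype past the test. With control peptide, Fcgrt was at 35.1, 39.7, 46.2, 72.1 and 37.8 CPM in WT and at 43.5 and 58.8 CPM in APP/PS1. With inhibitor it was at 62.5, 39.9, 43.7, 58.3 and 54.4 CPM in WT and at 34.5, 64.2, 45.7, 43.1 and 71.9 CPM in APP/PS1. The ranges of the genotypes almost coincided, at 35.1 to 72.1 CPM in WT and 34.5 to 71.9 CPM in APP/PS1. The log2 change over both peptides was 0.06 ± 0.16 (SE), with a 95% interval of -0.28 to 0.40 and an edgeR adjusted p of 0.997.

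**Figure D1:**
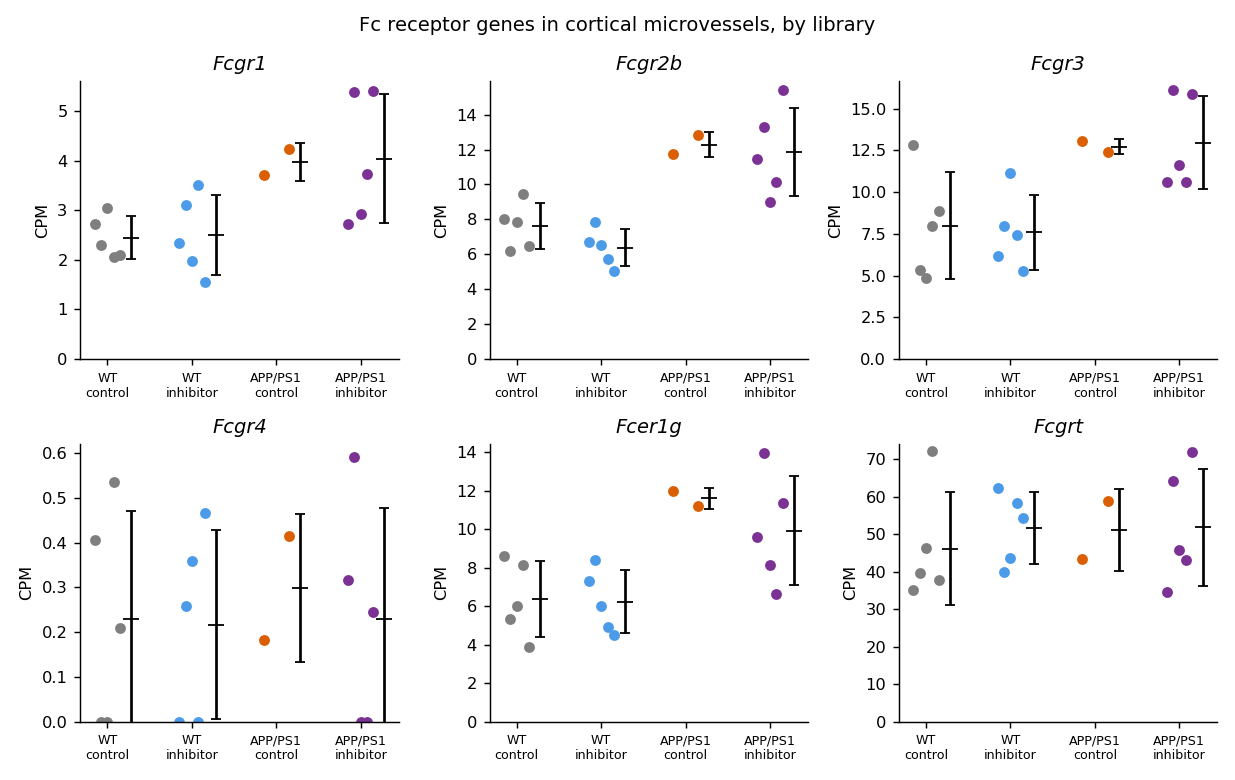
Level of each member in CPM (vertical axis, from 0) by group, with 1 point per library and the bar at the group mean ± SD. Fcgr2b lay at 9.01 CPM or more in every APP/PS1 library and at 9.47 CPM or less in every WT library, whereas Fcgrt ran from 35.1 to 72.1 CPM in WT and from 34.5 to 71.9 CPM in APP/PS1.

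Over both peptides, 1 of the 5 members tested passed the threshold, where 0.56% of all tested genes were called higher in APP/PS1 (edgeR, adjusted p). At an unadjusted p under 0.05, 4 of the 5 were higher, all except Fcgrt, against 3.48% of tested genes. For 0 of the 5 did every APP/PS1 library lie above every WT library, which 0.267% of tested genes showed. The median log2 change of the 5 was 0.73, and that of all tested genes was 0. DESeq2's Wald test also called Fcgr3 (adjusted p = 0.0227) and Fcer1g (0.0125) and left Fcgr1 above the threshold (0.0565). In bulk RNA, more cells of a type and more RNA per cell cannot be told apart.

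The log2 changes by genotype were above 0 for all 5 tested members with either peptide. With control peptide, 0 of the 5 members passed, where 0.0533% of tested genes were called higher, and 4 were higher at an unadjusted p under 0.05, against 1.82% of tested genes. DESeq2 also called 0 of the 5 in that comparison. The edgeR log2 changes with control peptide were 0.69 ± 0.31 (SE) for Fcgr1, 0.69 ± 0.20 for Fcgr2b, 0.65 ± 0.30 for Fcgr3, 0.84 ± 0.29 for Fcer1g and 0.15 ± 0.28 for Fcgrt. The 2 APP/PS1 libraries lay above the 5 WT libraries for Fcgr1, Fcgr2b and Fcer1g, an arrangement that 3.6% of tested genes showed.

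With inhibitor, Fcgr2b alone of the 5 passed, where 0.176% of tested genes were called higher; 4 were higher at an unadjusted p under 0.05, against 2.08%. Its log2 change was 0.89 ± 0.16 (SE), 1.85-fold, with an edgeR adjusted p of 0.0215. It was also the member whose APP/PS1 libraries all lay above the WT libraries, as for 0.629% of tested genes. This call was not firm: leaving out WT inhibitor replicate 1, 3, 4 or 5 or APP/PS1 inhibitor replicate 2 or 5 raised the adjusted p to between 0.059 and 0.107, and fitting these 2 groups alone gave 0.0601. DESeq2's Wald test kept the call of Fcgr2b (adjusted p = 0.000325). With the mean level of microglia genes as a covariate, Fcgr2b did not pass (edgeR adjusted p = 0.394). These genes were themselves higher in APP/PS1, so that fit cannot separate the covariate from the genotype. The other log2 changes with inhibitor were 0.71 ± 0.24 for Fcgr1, 0.77 ± 0.24 for Fcgr3, 0.67 ± 0.23 for Fcer1g and 0.01 ± 0.21 for Fcgrt.

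**Figure D2:**
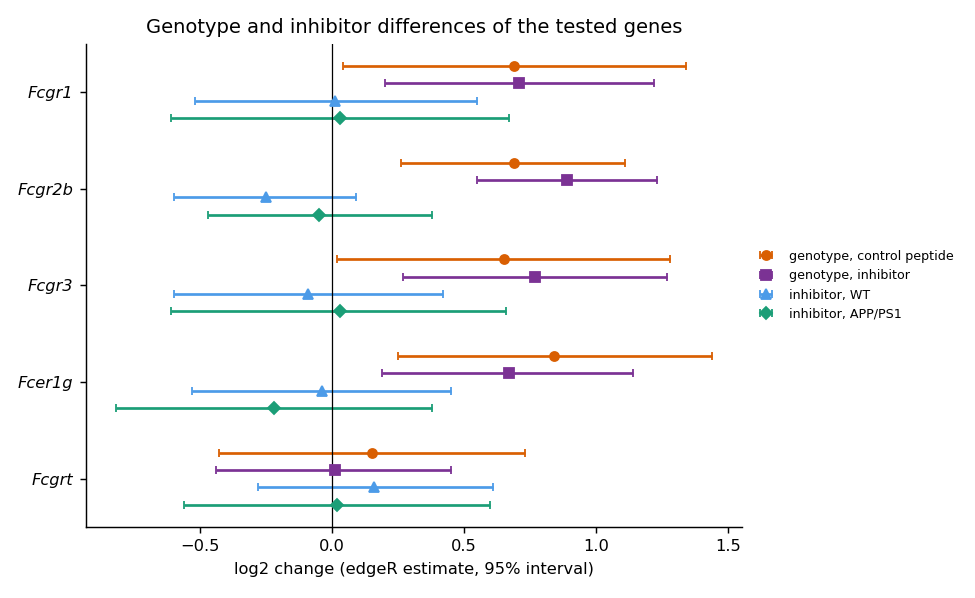
Log2 change (horizontal axis) of each tested member by genotype with each peptide and by inhibitor in each genotype, with the point at the edgeR estimate and the bar spanning its 95% interval. The genotype changes of Fcgr1, Fcgr2b, Fcgr3 and Fcer1g were 0.65 to 0.89, and every interval for the inhibitor spanned 0.

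The inhibitor left no member past the test, in either genotype. In APP/PS1 mice, inhibitor minus control peptide gave log2 changes of 0.03 for Fcgr1 (95% interval -0.61 to 0.67), -0.05 for Fcgr2b (-0.47 to 0.38), 0.03 for Fcgr3 (-0.61 to 0.66), -0.22 for Fcer1g (-0.82 to 0.38) and 0.02 for Fcgrt (-0.56 to 0.60). In WT mice it gave 0.01 for Fcgr1, -0.25 for Fcgr2b, -0.09 for Fcgr3, -0.04 for Fcer1g and 0.16 for Fcgrt. The WT interval of Fcgr2b was -0.60 to 0.09. The intervals of Fcgrt in both genotypes went past its own genotype change of 0.06. Among the other members, the interval of Fcer1g in APP/PS1 reached the size of its own genotype change (0.73). The intervals of Fcgr2b in either genotype did not reach its 0.81. Smaller changes lie within the intervals, so the comparisons do not show that the peptides act alike.

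In APP/PS1, in WT and over both genotypes, 0 of the 5 members passed, also at an unadjusted p of 0.05. Over all genes, edgeR and DESeq2 called 0% in each of these comparisons, and the unadjusted share in either direction was 1.8% in APP/PS1, 1.34% in WT and 2.11% over both. The interaction, which asks whether the inhibitor acts differently by genotype, was also 0 of 5, with log2 differences of 0.02 for Fcgr1, 0.21 for Fcgr2b, 0.12 for Fcgr3, -0.18 for Fcer1g and -0.14 for Fcgrt (edgeR adjusted p = 1 for each). Its unadjusted share over all genes was 0.843%.

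Pairs of members were compared as log2 ratios in each library. Of the 15 pairs, the ratio of Fcgr2b to Fcgrt differed by genotype, with means of -2.07 ± 0.26 (SD, n = 7) in APP/PS1 and -2.76 ± 0.43 (SD, n = 10) in WT. The difference of 0.69 had a p of 0.00201 in a two-sided exact permutation test with 19448 splits (adjusted over the 15 pairs, 0.0301). Without APP/PS1 control peptide replicate 1 or 2, or APP/PS1 inhibitor replicate 1 or 4, its adjusted p was 0.0506 to 0.0899. The ratios of Fcgr1, Fcer1g and Fcgr3 to Fcgrt differed by 0.58, 0.64 and 0.69, with adjusted exact permutation p-values of 0.063, 0.063 and 0.0843.

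The ratio of the inhibitory receptor to Fcgr3 did not differ past the test. The log2 ratio of Fcgr2b to Fcgr3 was -0.10 ± 0.17 (SD, n = 7) in APP/PS1 and -0.11 ± 0.45 (SD, n = 10) in WT, a difference of 0.00 (exact permutation, adjusted p = 0.991). Its spread was wider in WT, where the same 2 libraries with high Fcgr3 stood at its lower end.

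Levels of different genes were compared per kilobase of annotated exon, taken as the union of all exons of a gene. This length was 5790 bases for Fcgr2b, 1736 for Fcgr3 and 874 for Fcer1g, and the order of these genes depends on it. Without division by length, their means in WT with control peptide were 7.6, 7.98 and 6.39 CPM. In WT with control peptide, Fcgrt was at 22.0 CPM per kb, Fcer1g at 7.31, Fcgr3 at 4.6, Fcgr2b at 1.31, Fcgr1 at 0.944 and Fcgr4 at 0.183. In APP/PS1 with control peptide these were 24.3, 13.3, 7.32, 2.12, 1.53 and 0.238 CPM per kb. That order held in 15 of 17 libraries; 1 library had Fcgr1 above Fcgr2b and 1 had Fcgr3 above Fcer1g. Fcgrt made up 44.6 to 72% of the summed per-kilobase level of the 6 genes in a library. Fcer1g, Fcgr3, Fcgr2b and Fcgr1 all lay below it in every library.

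**Figure D3:**
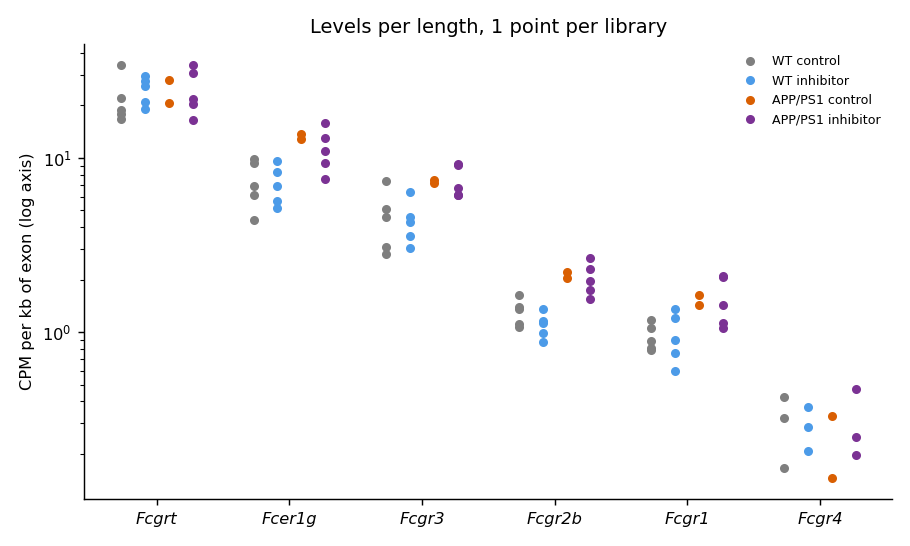
Level per kilobase of exon of the 6 members in each library, on a log axis that leaves out libraries with 0 counts of Fcgr4. The rank of the genes, from Fcgrt at the top to Fcgr4, was the same in 15 of the 17 libraries.

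Microglia markers moved with the genotype, and those of perivascular macrophages did not pass the test. The summed CPM of 9 microglia genes was 236 to 315 in WT and 296 to 485 in APP/PS1, none of the 9 was at 0, and 5 of 9 rose over both peptides, among them Siglech by 0.72, Cx3cr1 by 0.78, Csf1r by 0.63 and P2ry12 by 0.66 on the log2 scale. Of 8 perivascular macrophage genes, 0 passed, with sums of 41 to 117 CPM in WT and 44.1 to 86.4 CPM in APP/PS1. Of 11 neutrophil genes, 7 were tested and 1 rose, Csf3r. The others tested did not pass, with log2 changes from -0.37 for S100a8 to 1.27 for Ngp. The 11 genes summed to 11.6 to 30.1 CPM in WT and 23.7 to 40.3 CPM in APP/PS1. Ly6g and Elane had 0 counts in every WT library, had counts in some APP/PS1 library and did not pass the filter. T and NK cell genes summed to no more than 2.29 CPM. In the other marker lists, of monocytes, dendritic, mast and B cells, endothelium, mural cells, astrocytes, oligodendrocytes, neurons, fibroblasts, choroid plexus and platelets, 1 gene passed, the astrocyte gene Gfap (1.20 on the log2 scale).

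Relative to the mean of the microglia genes, the signalling members did not differ past the threshold. On the log2 scale, the differences between APP/PS1 and WT were 0.18 for Fcgr2b, 0.18 for Fcgr3, 0.13 for Fcer1g and 0.08 for Fcgr1 (exact permutation tests adjusted over 6 members, p = 0.379 to 0.613). Fcgrt was lower against the microglia genes by -0.51 (adjusted p = 0.0352), a call that any of 11 libraries decided. Without WT control peptide replicate 3 or 4, WT inhibitor replicate 1, 3, 4 or 5, APP/PS1 control peptide replicate 1 or 2, or APP/PS1 inhibitor replicate 1, 3 or 4, the adjusted permutation p was 0.053 to 0.0787. Fcgrt alone changed by 0.06 over both peptides, and the 9 microglia genes had a median log2 change of 0.66. The lower ratio of Fcgrt thus reflects the rise of the genes it was divided by, and not a fall of Fcgrt. With the microglia mean as a covariate, the log2 change of Fcgr2b over both peptides was 0.44 (edgeR adjusted p = 0.349), and those of Fcgr3, Fcer1g and Fcgr1 were 0.26, 0.08 and 0.04. All 9 microglia genes were higher in APP/PS1 at an unadjusted edgeR p under 0.05. The covariate thus tracks the genotype, and this fit cannot separate them.

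**Figure D4:**
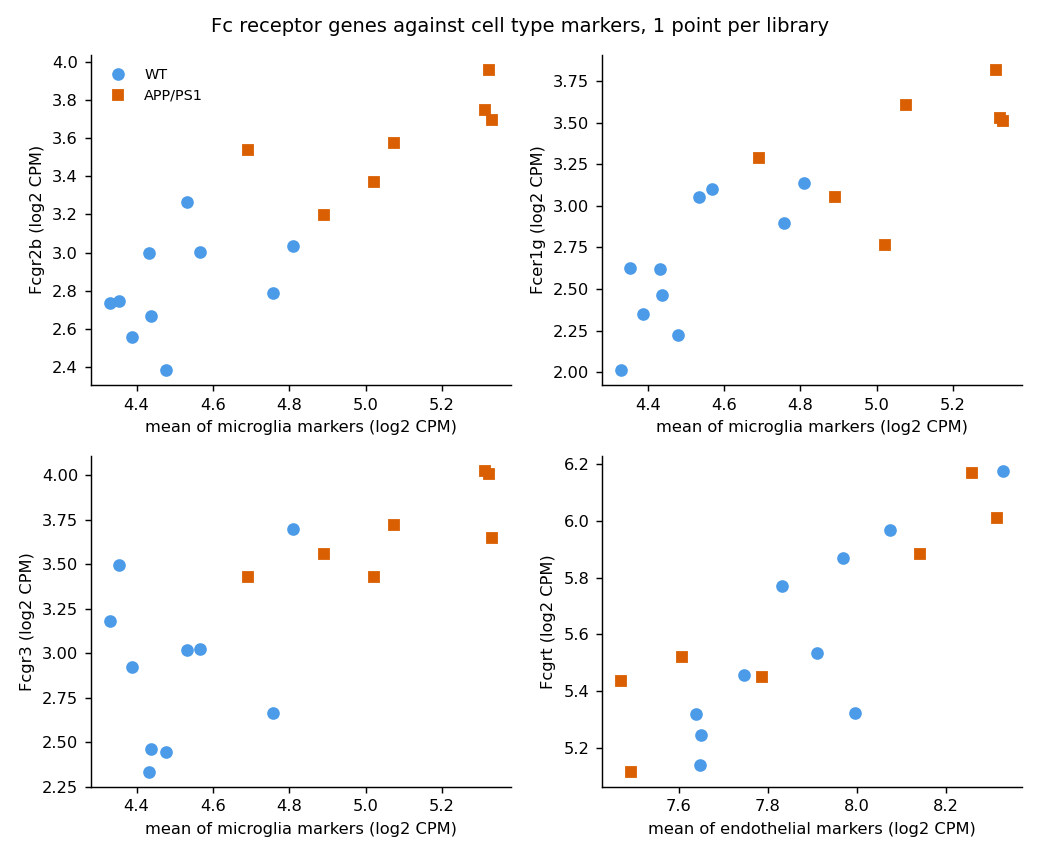
Log2 CPM of Fcgr2b, Fcer1g and Fcgr3 against the mean log2 CPM of the microglia genes, and of Fcgrt against that of the endothelial genes, with 1 point per library and WT and APP/PS1 by colour and shape. Most APP/PS1 points of Fcgr2b lie above and to the right of the WT points, with an overlap on each axis, and those of Fcgrt follow the endothelial mean in both genotypes (r = 0.85 in WT and 0.93 in APP/PS1).

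Within each genotype, 20 relations of a member to a marker mean were computed. Fcgrt against the endothelial genes gave Pearson's r = 0.85 and Spearman's rho = 0.83 over 10 WT libraries (permutation p = 0.00314 and 0.00452, adjusted 0.0351 and 0.0675). Without the 2 libraries farthest from the median, r was 0.73. Over 7 APP/PS1 libraries they were 0.93 and 0.89 (exact permutation p = 0.00873 and 0.0123, adjusted 0.0351 and 0.068), and 0.85 without the 2. In WT, Fcgrt against the microglia genes gave r = 0.05 and rho = 0.09 (permutation p = 0.89 and 0.813; r = 0.33 without the 2 farthest libraries). In APP/PS1 the relation was not particular to Fcgrt or to the endothelial genes. Pearson's r with the endothelial genes there was 0.91 for Fcgr3, 0.90 for Fcgr1, 0.83 for Fcgr2b and 0.81 for Fcer1g (exact permutation tests, adjusted p = 0.0351, 0.0351, 0.0446 and 0.0547), with rho of 0.93, 0.75, 0.86 and 0.86. Fcgrt with the microglia genes gave r = 0.93 and rho = 0.79 there (exact permutation, adjusted p = 0.0351 and 0.107).

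Fcer1g followed the microglia genes in WT, with r = 0.74 and rho = 0.76 (n = 10, permutation p = 0.0111 and 0.0151, adjusted 0.0351 and 0.068; r = 0.75 without the 2 farthest libraries). In APP/PS1, r of Fcer1g was 0.57 and rho 0.54 (n = 7, exact permutation, adjusted p = 0.283 and 0.363). Fcgr1 was the other way round, with r = 0.13 and rho = 0.19 in WT (permutation, adjusted p = 0.796 and 0.671) and r = 0.93 and rho = 0.86 in APP/PS1 (exact permutation, adjusted p = 0.0351 and 0.068). Whether the genotypes differ in these relations was not tested. Fcgr3 did not follow the microglia genes in WT, with r = 0.20 and rho = 0.04 (permutation p = 0.57 and 0.921). In APP/PS1, Fcgr3 gave r = 0.78 and rho = 0.71 (exact permutation, adjusted p = 0.0786 and 0.16). Fcgr2b with the microglia genes gave r = 0.39 and rho = 0.54 in WT (permutation, adjusted p = 0.362 and 0.191). In APP/PS1, Fcgr2b gave r = 0.70 and rho = 0.79 (exact permutation, adjusted p = 0.147 and 0.107). Over all 20 relations, 0 passed on the adjusted Spearman p.

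The receptors' ligands and partners were then examined. Of 11 immunoglobulin genes, 5 were tested and 0 passed, with a median log2 change of -0.08. Among heavy chains, Ighg2c was at 1.12 CPM ± 0.428 (SD, n = 10) in WT and 1.1 CPM ± 0.274 (SD, n = 7) in APP/PS1, and Ighg1, Ighg2b and Ighg3 did not pass the filter. The change of Ighm was 0.32 ± 0.24 and that of Igkc -0.64 ± 0.59. Of 13 other Fc receptor genes, 3 were tested and 1 rose: Fcrls, a microglial Fc receptor-like gene, from 13.8 CPM ± 4.19 (SD, n = 10) in WT to 28.1 CPM ± 8.26 (SD, n = 7) in APP/PS1 (log2 change 1.02 ± 0.21, edgeR adjusted p = 0.0193).

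Genes listed as other receptors paired with the gamma chain, and as other ITAM adaptors, were fewer at testable levels. The lists are wider than their names: Pirb and Clec1b do not signal through the gamma chain, and Hcst carries no ITAM. Of the 11 receptor genes listed, 6 were tested, Pirb and Clec1b among them, and 0 passed. Lilra5 had the smallest p, with a log2 change of 0.73 ± 0.21 (edgeR adjusted p = 0.199). Of the 5 adaptor genes listed, 2 were tested, and Tyrobp, the DAP12 adaptor of TREM2, rose from 4.24 CPM ± 1.39 (SD, n = 10) to 10.1 CPM ± 2.41 (SD, n = 7). The log2 change of Tyrobp was 1.22 ± 0.19, with an edgeR adjusted p of 0.00161.

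Calls were found among genes listed for the activating signal downstream of the gamma chain and among those listed for the inhibitory one. Both lists were chosen with earlier results of these data known, so the counts of calls do not test either pathway. Of 25 activating-signal genes, all tested, 9 rose, 0 fell and 16 did not pass, where 0.56% of all tested genes were called higher; the median log2 change was 0.45, against 0 over all tested genes. Among them were the phosphatase gene Ptprc (1.03 ± 0.12, edgeR adjusted p = 4.69e-05), the Rac activator Dock2 (0.74 ± 0.10, 0.000594), the adaptor Blnk (0.84 ± 0.12, 0.00069), Nckap1l (0.64 ± 0.09, 0.000786) and Syk, the kinase that the ITAM recruits (0.44 ± 0.09, 0.0282). Of 12 inhibitory-signal genes, 11 were tested and 2 rose: the inhibitory receptor Lair1 by 0.67 ± 0.09 (0.000645) and Inpp5d, the SHIP1 phosphatase, by 0.41 ± 0.09 (0.0401). The change of Ptpn6, the SHP-1 phosphatase, was 0.53 ± 0.15 with an adjusted p of 0.156. Whether the 2 lists differ was not tested. Of the 9 microglia markers, 5 were called higher, with a median log2 change of 0.66. The part of microglia in the calls of the lists was not tested. With the inhibitor, 0 genes of either list passed, in WT or in APP/PS1.

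**Figure D5:**
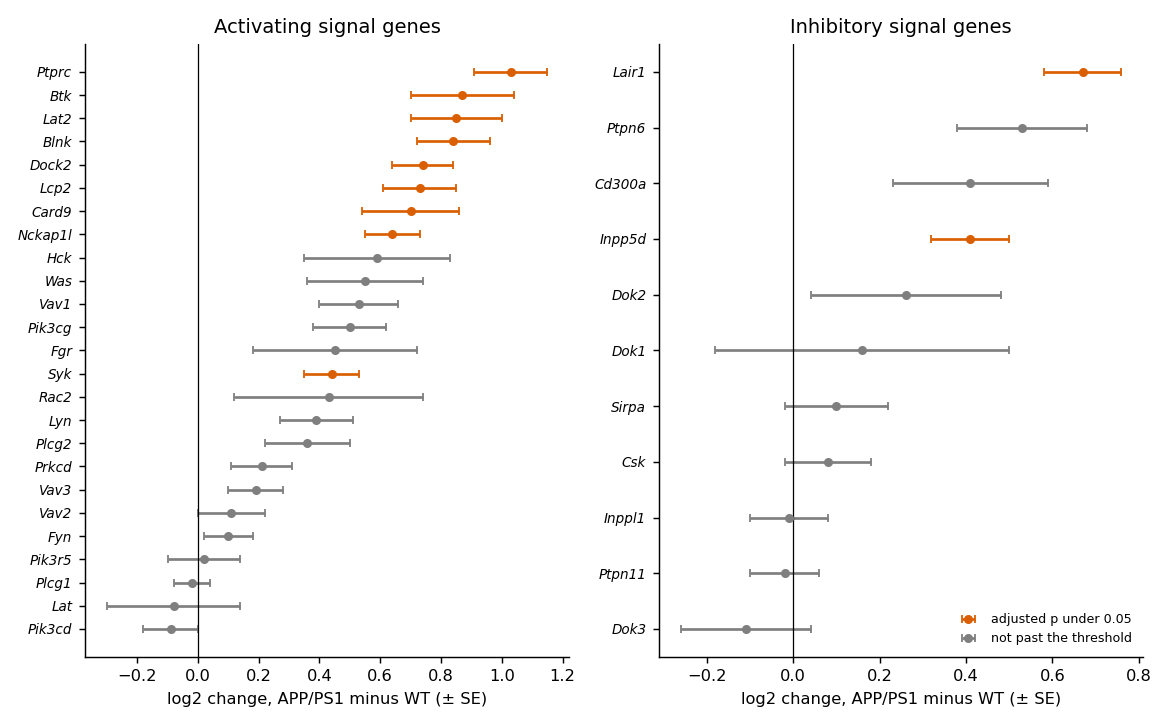
Log2 change by genotype over both peptides (horizontal axis, ± SE) of each tested activating-signal gene (left) and inhibitory-signal gene (right), with genes at an adjusted p under 0.05 in orange. In the activating-signal list 9 of 25 genes were called, and in the inhibitory list 2 of 11.

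Of 10 genes that act with the neonatal receptor, 9 were tested and 0 passed, with a median of 0.01. B2m, its light chain and that of MHC class I, was at 274 CPM ± 109 (SD, n = 10) in WT and 362 CPM ± 116 (SD, n = 7) in APP/PS1, a log2 change of 0.40 ± 0.24 (edgeR adjusted p = 0.868). Cd274 had the smallest p of this list, with a change of 0.41 ± 0.17 (adjusted p = 0.647).

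The genes whose levels followed each member most closely over the 17 libraries were described by Pearson's r on the log2 scale, across libraries that also share the genotype. For Fcgr2b they were Ly86 (r = 0.94), Ctss (0.92) and Cd53 (0.92), and for Fcgr1 they were Ctss (0.86), Adora3 (0.84) and Asb10 (0.84). For Fcgr3 they were C1qb (0.93), Rassf2 (0.90) and Slc11a1 (0.89), and for Fcer1g they were Laptm5 (0.92), Nfatc1 (0.91) and Ly86 (0.89). For Fcgrt they were Bcam, Ctnnb1 and Tapbp, each at r = 0.95.

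With the 4 group means removed, the closest genes of most members changed. Among the closest to Fcgr2b were then Fn1 and Nid1, each at r = 0.92. Among the closest to Fcgr3 were Cp (0.91) and Itih2 (0.90). Fcer1g was closest to Tead2 (0.96), Nfatc1 (0.94) and Rap1b (0.93), and Fcgr1 to Trmt112 (0.81), Rnf141 (0.80) and Prdm1 (0.78). Fcgrt kept Bcam (0.96) and Tapbp (0.95), with Card10 (0.95) in place of Ctnnb1.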

How the data were processed

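RNA-seq libraries of cortical microvessels were taken from the table of raw counts per gene that the authors deposited, whose values are whole numbers with unequal library totals. The submitters' processing notes name cutadapt, STAR, HTSeq and DESeq2 and the builds mm10 and GRCh37, without roles or versions. The labels' protocols give ribosomal RNA depletion and a stranded mRNA library kit. The label NOX2 was read as inhibitor, SC as control peptide. The table's 20 columns that matched no sample were not used. Symbols came from GENCODE vM21 (42250 IDs matched, 437 did not). All 136 pairs of libraries were compared and 0 were identical; within groups they differed by more than sampling noise.

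Genes were filtered with filterByExpr, scaled by TMM and tested with edgeR 4.0.16 (R 4.3.3, limma 3.58.1), with 1 mean per group or additive terms for genotype and peptide, Benjamini-Hochberg adjustment over 18753 genes and a threshold of 0.05. DESeq2 1.42.0 was an alternative. Ratios used log2 CPM with a prior count of 2 and two-sided exact permutation tests. The scripts were tested on simulated data. Replicates were numbered in sample order and pair no libraries.

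The members, gene lists and markers were chosen with earlier results of these data known. The text names all members, up to 4 called genes of each pathway list by p (otherwise those with the smallest p), Fcrls, Tyrobp, Syk, Inpp5d, Ptpn6, B2m and the IgG heavy chains, and the 3 genes most like each member; a few of these are not reported here. Further named genes were picked with their values in view. Protein sequences were not used here.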

Additional observations from a re-analysis of the deposited data

Results flagged for a closer look

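Of 21 sets of values examined for a library far from the others, chance alone would give about 1.05, and 1 was found. The summed level of the neutrophil genes was 30.1 CPM in WT with inhibitor replicate 2, against 11.6 to 15.1 CPM in the other 4 libraries of that group. In that library Fcgr2b was at 7.85 CPM, Fcgr3 at 7.97 CPM and Fcer1g at 8.43 CPM, all within the WT range. Its Fcgr2b and Fcer1g levels were the highest of its group, where the others reached 6.73 and 7.29 CPM. Its Fcgr3 level was not. Without that library, the log2 change of Fcer1g by genotype passed the threshold (0.82, edgeR adjusted p = 0.0314), and Fcgr2b kept its call. No member level examined was flagged. The nearest was Fcgrt in WT with control peptide replicate 4, at 72.1 CPM against 35.1 to 46.2 CPM. Its Dixon ratio was 0.698, below the cut of 0.71. Fcgr4 and the group of APP/PS1 with control peptide were not examined.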

How the results depend on the processing

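Over both peptides, the log2 change of Fcgr2b stayed past the threshold with DESeq2 size factors, with no filter on low counts and with DESeq2's test, and left it with the microglia covariate (0.44, edgeR adjusted p = 0.349). That covariate tracks the genotype, so fewer genotype calls with it cannot be read as a property of single genes. With no filter Fcer1g passed (adjusted p = 0.0344). The genes called by genotype over both peptides, 110, became 173 with DESeq2's test, 5 with the covariate and 70 to 125 leaving out 1 library. With control peptide, 10 became 44, 2 and 4 to 17, and with inhibitor, 34 became 61, 2 and 15 to 38. The ratio pairs past the threshold, 1, became 0 in the libraries with inhibitor alone and 0 to 4 leaving out 1 library; for members against the microglia genes, 1 became 0 and 0 to 1. The cause was not tested.

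With the covariate, Fcgrt by genotype turned to -0.58 over both peptides, with control peptide and with inhibitor, Fcgr1 with control peptide to -0.06, Fcgr2b by inhibitor in APP/PS1 to 0.05 and Fcgr3 by inhibitor over both genotypes to 0.02. None of these passed. The ratio of Fcgr1 to Fcer1g turned to 0.00 with inhibitor alone. Leaving out 1 library turned only changes that did not pass. Fcgrt by genotype ran from -0.03 to 0.13 over both peptides, -0.08 to 0.37 with control peptide and -0.14 to 0.12 with inhibitor. By inhibitor in APP/PS1, Fcgr1 ran from -0.10 to 0.16, Fcgr2b from -0.16 to 0.03, Fcgr3 from -0.06 to 0.10 and Fcgrt from -0.18 to 0.25. In WT, Fcgr1 ran from -0.12 to 0.15, Fcgr3 from -0.27 to 0.16 and Fcer1g from -0.19 to 0.10. Over both genotypes, Fcgr1 ran from -0.05 to 0.10 and Fcgr3 from -0.15 to 0.10. The interaction ran from -0.12 to 0.16 for Fcgr1, -0.13 to 0.30 for Fcgr3 and -0.36 to 0.09 for Fcgrt. Ratios ran from -0.15 to 0.03 for Fcgr1 to Fcer1g, -0.07 to 0.09 for Fcgr2b to Fcgr3, -0.02 to 0.11 for Fcgr2b to Fcer1g, -0.02 to 0.14 for Fcgr3 to Fcer1g and -0.10 to 0.23 for Fcgr4 to Fcgrt.

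No paired analysis was possible because the labels give no replicate numbers. The 2 libraries of APP/PS1 with control peptide limit each comparison that uses that group; leaving 1 out assumes that the other varies like the rest. Depth limits Fcgr4.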

Other observations

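The WT libraries with the highest Fcgr3, control peptide replicate 1 (12.8 CPM) and inhibitor replicate 3 (11.1 CPM), were looked at for other genes after their values were seen. Fcrls, the microglial Fc receptor-like gene, had its lowest WT levels there, 6.31 and 7.81 CPM, against 12.9 to 20.2 CPM in the other WT libraries. The summed microglia markers were not low there, at 305 and 257 CPM within a WT range of 236 to 315 CPM. The perivascular macrophage genes summed to 88.3 and 117 CPM there, against 41 to 83.5 CPM in the other WT libraries. No test was made of these values.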
